A study of Homo sapiens with 4 samples.

Results

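The cytosolic ribosomal proteins are the proteins that, with the ribosomal RNAs, make up the large and the small subunit of the ribosome outside the mitochondria. Every identifier of the gene count matrix was taken whose symbol was RPL or RPS followed by a number, RPLP0, RPLP1, RPLP2 or RPSA, and the RPS6K kinases and RPS19BP1 were left out. This gave 79 of 12912 identifiers, under 78 symbols, because RPS9 was listed under 2 identifiers. Of the 78 symbols, 72 were main genes and 6 were paralogs, second copies that encode a close relative of a main protein (RPL22L1, RPL26L1, RPL36AL, RPL7L1, RPS27L and RPS4Y1). RPS18, RPS25, RPL6 and RPL7A were not analysed here.

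The study profiled RNA, proteins and ubiquitinated peptides of 786-O cells once VHL was restored, in part to list putative VHL substrates. Only the RNA is used here. 786-O is a human clear cell renal cell carcinoma line that has lost functional VHL, the substrate receptor of a ubiquitin ligase that marks HIF-α for degradation. The 786-O-Ctrl and 786-O-VHL sublines were both grown in RPMI1640 with FBS and both carried a triple reporter (GFP, luciferase and thymidine kinase) from a retroviral vector, and 786-O-VHL also carried HA-tagged VHL from the retroviral pBabe-puro vector. Each group was thus 1 subline with 2 libraries, and no source used here says that the libraries came from separate cultures, so p-values measure the spread between these libraries, which may be technical.

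Each ribosome holds each of its proteins in about equal number, and their mRNAs are among the most abundant of a growing cell. Most of these mRNAs start with a C followed by a run of pyrimidines, the terminal oligopyrimidine (TOP) motif, through which mTORC1 and LARP1 set their translation together. Many ribosomal protein genes carry snoRNA genes in their introns, and most have left processed pseudogenes, near-identical intronless copies, across the genome. In this family, reads may therefore be divided between a gene and its copies, and levels of single members are less certain than the comparison of one member between libraries.

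The 786-O-Ctrl libraries held 22141263 and 15714166 counts and are told apart by this depth, as the deeper and the shallower one, because their columns carried the same name. Replicates 1 and 2 of 786-O-VHL held 2807779 and 16114120 counts. VHL itself was at 42.9 and 43.9 CPM in 786-O-Ctrl, against 178 and 163 CPM in 786-O-VHL (log2 fold change 1.96 ± 0.07 SE, adjusted p = 2.87e-19), in the direction of the labels. CPM are counts per 1000000 counts of the library after TMM scaling, which sets the libraries to a common centre. Of 7 renal carcinoma markers, all were measured, and 1 rose and 4 fell (71.4% called, against 64.5% of all genes). NNMT was the one that rose (0.53 ± 0.06), KRT18 and CDH2 did not pass the test, and PAX8, a kidney lineage factor, was at 277 and 272 CPM in 786-O-Ctrl, against 166 and 137 CPM in 786-O-VHL. Of 8 markers of blood, endothelial, liver and red cells only PECAM1 was in the table, at 0.27 to 0.43 CPM, and the other 7 were not analysed here.

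The ribosomal protein genes together took 4.99% of all counts in each 786-O-Ctrl library (95% Wilson intervals 4.985% to 5.003% and 4.981% to 5.002%). They took 5.73% (5.70% to 5.76%) and 5.525% (5.51% to 5.54%) in 786-O-VHL replicates 1 and 2. These intervals cover counting error only. Both 786-O-VHL libraries lay above both 786-O-Ctrl libraries, in the large subunit genes (3.17% and 3.18% against 3.68% and 3.57%) and in the small subunit genes (1.83% and 1.82% against 2.05% and 1.96%). With 2 libraries a group, an exact two-sided permutation test cannot give a p below 0.333. This share is of the raw total: TMM gave the 786-O-Ctrl libraries factors of 0.951 and 0.958 and the 786-O-VHL ones 1.05 and 1.05, and with these the median log2 fold change of the members was 0.05. In bulk RNA, fewer cells of a type and less RNA per cell cannot be told apart.

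Gene by gene, the ribosomal protein genes moved little and in both directions in 786-O-VHL. All 79 members passed the filter on low counts, and 23 rose and 16 fell at an adjusted p under 0.05 (edgeR quasi-likelihood test, Benjamini-Hochberg over 12335 genes), while 40 did not pass the test. Over all genes tested, 64.5% passed, 32.6% higher and 31.9% lower, against 49.4% of the members, 29.1% higher and 20.3% lower. The members' log2 fold changes ran from -0.48 to 0.46, with a median of 0.05 and quartiles of -0.12 and 0.22. Over all genes the median was 0.02 and the quartiles were -0.40 and 0.46. The median size of a change, without its sign, was 0.18 on the log2 scale in the members and 0.43 in all genes.

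No member passed the test with a change of over 1.5-fold, where 34.8% of all genes did. In DESeq2 and in limma-voom the count past 1.5-fold was 0 as well, and with library totals alone it was 1 (RPL13A at 0.59). An unadjusted p under 0.05 in edgeR was found in 43 of the 79 members, where 64.5% of all genes passed even after adjustment. The libraries of a group lay close together for these genes: on the log2 scale, the 2 libraries of 786-O-Ctrl differed by a median of 0.03 and those of 786-O-VHL by 0.09, where all genes tested gave 0.08 and 0.16. In 33 members both 786-O-VHL libraries lay above both 786-O-Ctrl libraries and in 23 both lay below, so that 70.9% did not overlap, against a background of 80.0% of all genes (40.8% above and 39.2% below).

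The counts rest on the scaling, and both counts and medians move with single libraries. With library totals alone, where the median of all genes moved up by 0.13 on the log2 scale, 38 members were higher and 6 lower, against 23 and 16. Of all 12335 genes tested, 5077 were then higher and 3097 lower. The median of the members then stood 0.03 above that of all genes, as it did with TMM. Without the deeper 786-O-Ctrl library the median of the members was 0.03, against 0.02 in all genes. Without the shallower it was 0.04, against 0.02. Without 786-O-VHL replicate 1, the shallowest of all, it was 0.01, against 0.02, and without replicate 2 it was 0.09, against -0.0005.

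**Figure D1:**
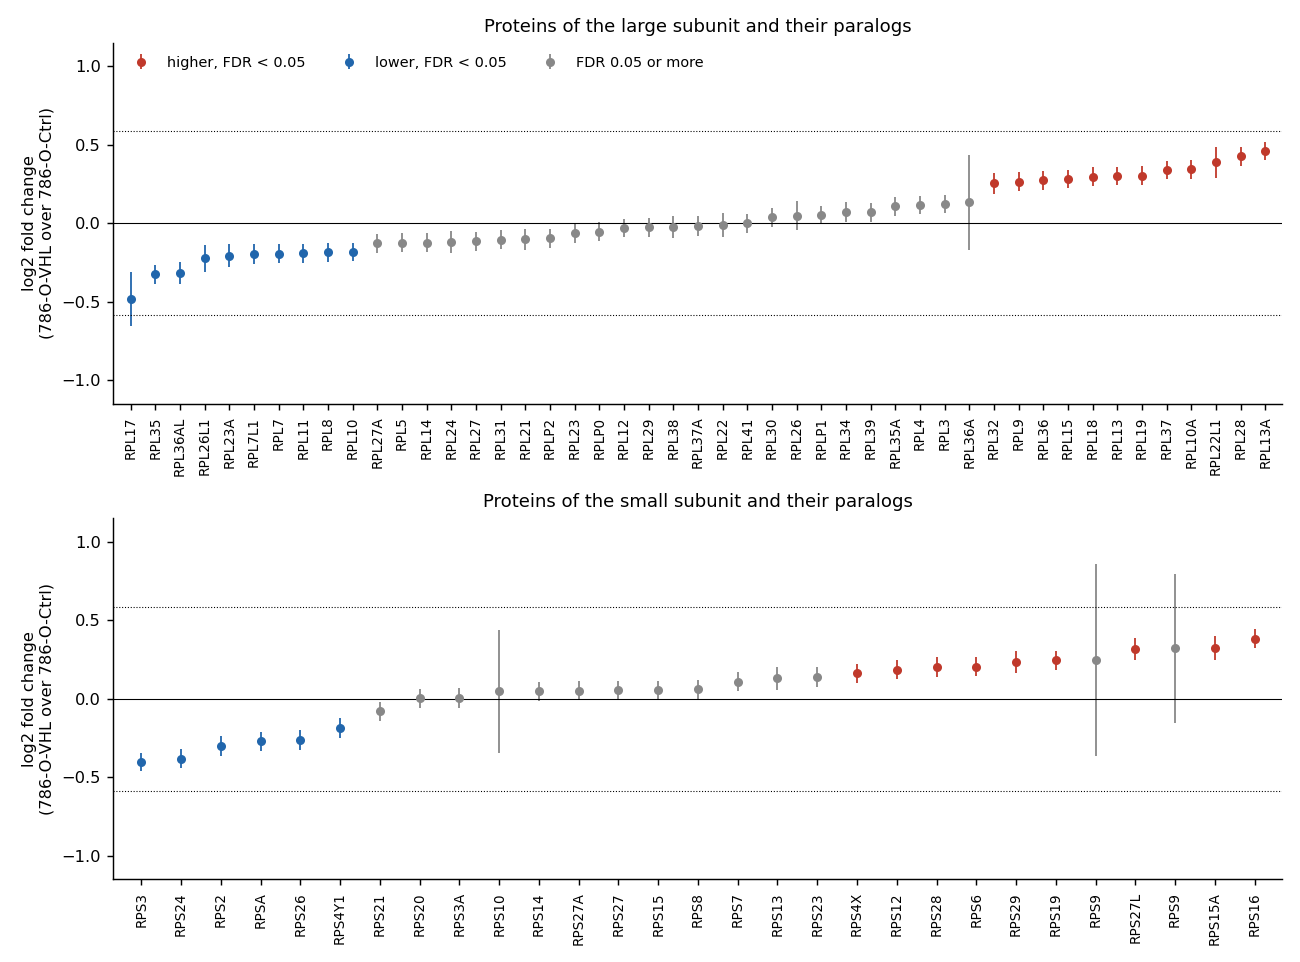
Log2 fold change (786-O-VHL over 786-O-Ctrl, vertical axis) of 76 of the 79 members, large subunit above and small subunit below, ordered by value; points are edgeR estimates, bars their SE, and dotted lines mark a 1.5-fold change. The 21 drawn members that were higher (red) and the 16 lower (blue) all lie inside the dotted lines, and RPS9 appears once for each of its 2 identifiers.

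**Figure D2:**
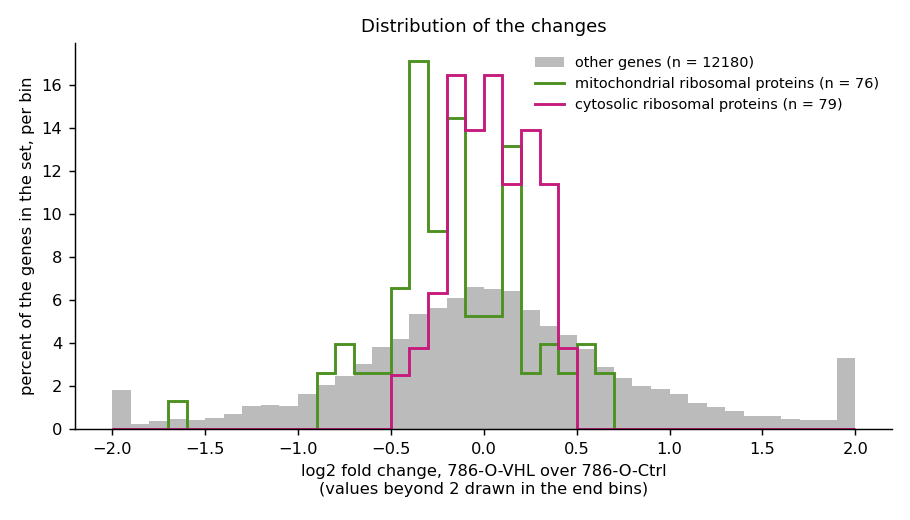
Percent of genes (vertical axis) by log2 fold change (horizontal axis) for the 79 cytosolic ribosomal protein genes, 76 mitochondrial ribosomal protein genes and the other genes tested; values beyond 2 stand in the end bins. The cytosolic members lie between -0.48 and 0.46, and the mitochondrial ones reach from -1.60 to 0.67.

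Among the largest rises, RPL13A, a large subunit protein that also takes part in silencing of inflammatory transcripts, led. It was at 1450 and 1444 CPM in 786-O-Ctrl (deeper library first, here and after), against 2007 and 1970 CPM in replicates 1 and 2 of 786-O-VHL (log2 fold change 0.46 ± 0.06 SE, adjusted p = 7.66e-08). RPL28 of the large subunit was at 610 and 607 CPM against 811 and 824 CPM (0.43 ± 0.06, adjusted p = 3.76e-07). In both, the 786-O-Ctrl libraries lay almost on top of each other and the 786-O-VHL libraries lay clear above them. RPS16, a protein of the small subunit, was at 661 and 632 CPM against 843 and 841 CPM (0.38 ± 0.06, adjusted p = 2.58e-06). RPL10A, near the site where the tRNA leaves the ribosome, was at 544 and 529 CPM against 700 and 664 CPM (0.34 ± 0.06, adjusted p = 1.53e-05). The paralog RPL22L1, described with its main gene, also had one of the largest rises. These 5 genes kept their call and direction under each other scaling, test, filter and correction and on leaving out each library.

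Among the largest falls, RPS3, which lies at the mRNA entry of the small subunit and also acts in DNA repair, was at 1180 and 1192 CPM in 786-O-Ctrl, against 933 and 866 CPM in 786-O-VHL (-0.40 ± 0.06, adjusted p = 1.36e-06). RPS24, a small subunit protein mutated in some patients with Diamond-Blackfan anaemia, was at 972 and 1018 CPM against 792 and 739 CPM (-0.38 ± 0.06, adjusted p = 3.58e-06). RPL35, at the rim of the tunnel through which the new protein leaves, was at 930 and 951 CPM against 774 and 731 CPM (-0.33 ± 0.06, adjusted p = 2.90e-05). In these 3 genes replicate 2 of 786-O-VHL was the lowest of the 4 libraries and no library crossed into the other group. RPS2, near RPS3 at the mRNA entry, was at 2388 and 2275 CPM against 1767 and 2016 CPM (-0.30 ± 0.06, adjusted p = 1.75e-04), with replicate 1 the lowest here. These 4 falls kept their call under the same alternatives.

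RPL17, also at the tunnel exit, had the largest estimate of a fall but rested on few reads. It was at 12.5 and 13.2 CPM against 11.5 and 8.55 CPM (-0.48 ± 0.17, adjusted p = 0.0150), with 263, 199, 34 and 144 counts. The call was lost with DESeq2 (adjusted p = 0.179), with thinning to the shallowest library (0.0859), with library totals alone (0.0739), without the deeper 786-O-Ctrl library (0.0692), without the shallower (0.124) and without 786-O-VHL replicate 2 (0.651).

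**Figure D3:**
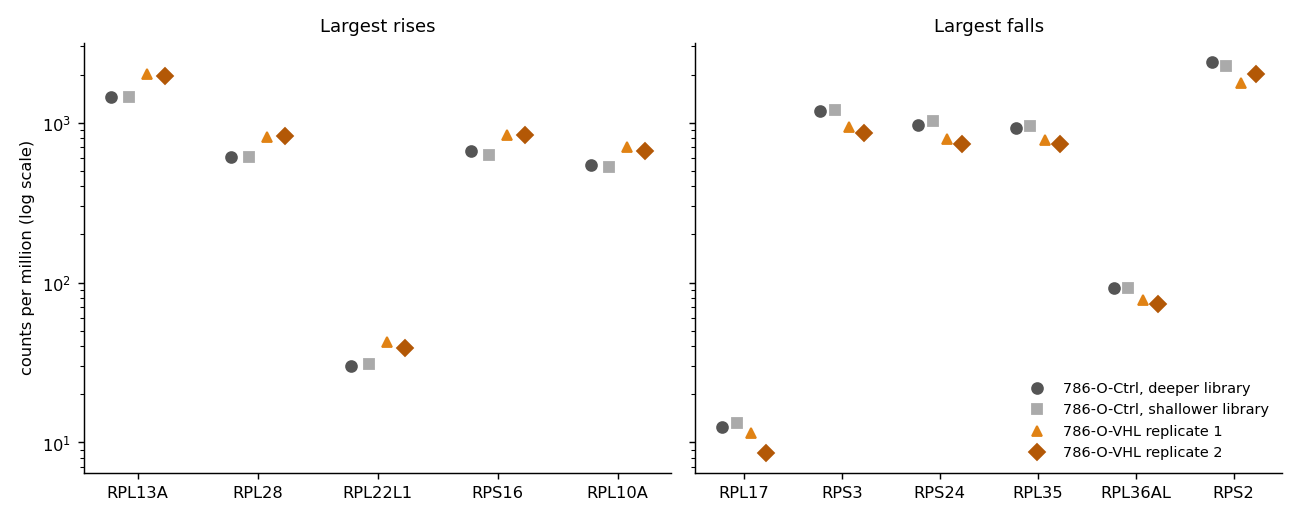
CPM on a log scale (vertical axis) of 5 members with the largest rises (left) and the 6 with the largest falls (right) in each of the 4 libraries, 1 symbol a library. In each gene the 2 grey 786-O-Ctrl symbols lie together, for example at 1450 and 1444 for RPL13A, and both orange 786-O-VHL symbols lie on the same side of them.

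The start of the transcript is shown for genes that rose and genes that fell, and for 2 paralogs beside their main genes, since it carries the TOP motif the family is known for. The windows run from 10 bases before to 20 bases into the first exon, were taken from the RefSeq promoters of GRCh38.p14 (the counts used hg19) and are written along the transcript, with a TOP start, a C at the first transcribed base followed by at least 4 of C or T, in capitals. The first 3 genes rose and the next 3 fell.
RPL13A (chr19:49487598-49487627, +): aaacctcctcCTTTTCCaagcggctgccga
RPL28 (chr19:55385922-55385951, +): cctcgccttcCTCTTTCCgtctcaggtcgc
RPS16 (chr19:39435930-39435959, -): ccctagctttCCTTTTCCggttgcggcgcc
RPS3 (chr11:75399508-75399537, +): cgagccacttCCTTTCCTTTCagcggagcg
RPS24 (chr10:78033853-78033882, +): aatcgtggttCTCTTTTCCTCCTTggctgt
RPL35 (chr9:124861938-124861967, -): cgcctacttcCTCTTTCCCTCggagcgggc
RPL22 (chr1:6199576-6199605, -): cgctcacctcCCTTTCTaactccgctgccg
RPL22L1 (chr3:170870176-170870205, -): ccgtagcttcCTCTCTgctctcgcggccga
RPS27 (chr1:153990752-153990781, +): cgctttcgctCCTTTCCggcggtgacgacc
RPS27L (chr15:63157458-63157487, -): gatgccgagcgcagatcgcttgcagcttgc

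All 3 risen and all 3 fallen genes printed above held such a start, with runs of 7 to 14 bases, as did RPL22, RPL22L1 and RPS27. RPS27L held none. The table listed 64 of the 78 member symbols, and 45 of them (70.3%) held a TOP start at one or more of their listed first bases, against 5.14% of all 27305 genes in the table. Among members that rose, 10 of 19 listed genes held it, among those that fell 7 of 12, and among those that did not pass the test 28 of 33. A matching start is a description of these letters on the transcribed strand only, and RefSeq first bases can differ from those used in 786-O.

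By role, the 33 identifiers of proteins shared by all domains of life (the u names of the unified nomenclature) counted 7 higher and 10 lower, their log2 fold changes having a median of 0.00. The 38 of proteins found in eukaryotes, some also in archaea (the e names), counted 14 higher and 2 lower, with a median of 0.06. By subunit, 13 of 48 large subunit genes rose and 10 fell (median -0.01), and 10 of 31 small subunit genes rose and 6 fell (median 0.06). These are counts beside the 32.6% and 31.9% of all genes, and the differences between the classes were not tested. The class counts move with single libraries: the e names counted 13 higher and 9 lower without 786-O-VHL replicate 1, 19 and 2 without replicate 2, 6 and 1 without the deeper 786-O-Ctrl library and 8 and 2 without the shallower. The u names counted 9 and 13, 11 and 9, 6 and 3, and 6 and 4 in the same order.

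The P stalk, which draws elongation factors to the ribosome, did not pass the test in any of its 3 members. RPLP0, its base, was at 1845 and 1812 CPM in 786-O-Ctrl, against 1660 and 1857 CPM in 786-O-VHL (-0.05 ± 0.06, adjusted p = 0.465), so that its groups overlapped; without 786-O-VHL replicate 2 its estimate was -0.15 (adjusted p = 0.00434). RPLP1 was at 1051 and 1038 CPM against 1065 and 1097 CPM (0.05 ± 0.06, adjusted p = 0.459), and with library totals alone at 0.19 (0.00597). RPLP2 was at 574 and 577 CPM against 552 and 529 CPM (-0.09 ± 0.06, adjusted p = 0.172), and without 786-O-VHL replicate 1 at -0.12 (0.0120).

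RPL5 and RPL11 form, with a small ribosomal RNA, the particle that binds and inhibits MDM2 when ribosome assembly is disturbed. RPL11 fell, from 772 and 791 CPM to 700 and 671 CPM (-0.19 ± 0.06, adjusted p = 0.00643). Its call was lost without the deeper 786-O-Ctrl library (adjusted p = 0.104), without the shallower (0.176), with library totals alone (0.401) and with the GC and length correction (0.0602). RPL5 was at 813 and 815 CPM against 773 and 724 CPM (-0.12 ± 0.06, adjusted p = 0.0722), also below in both 786-O-VHL libraries, and passed with the GC and length correction (0.0195), RLE scaling (0.0434), limma-voom (0.0250), no filter (0.0486) and without 786-O-VHL replicate 1 (6.09e-04).

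RPS6, the small subunit protein phosphorylated by the S6 kinases, rose from 1163 and 1160 CPM to 1408 and 1273 CPM (0.20 ± 0.06, adjusted p = 0.00491). Without the deeper 786-O-Ctrl library its adjusted p was 0.142 and without the shallower 0.151. RPS19, the gene most often mutated in Diamond-Blackfan anaemia, rose from 808 and 800 CPM to 979 and 929 CPM (0.24 ± 0.06, adjusted p = 7.73e-04), with 0.0622 and 0.0805 on leaving out the deeper or the shallower control library. RPL35A, mutated in some patients with the same disease, was at 447 and 448 CPM against 499 and 469 CPM (0.11 ± 0.06, adjusted p = 0.127), and passed with library totals alone (9.80e-04) and without 786-O-VHL replicate 2 (0.0176).

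The 5 members RPL14, RPL15, RPL29, RPL32 and RPSA lie on the short arm of chromosome 3, which also holds VHL and is often lost in clear cell renal cell carcinoma, and went both ways. RPL15, a large subunit protein, rose from 978 and 1013 CPM to 1210 and 1211 CPM (0.28 ± 0.06, adjusted p = 1.31e-04), and RPL32 rose from 507 and 519 CPM to 662 and 572 CPM (0.25 ± 0.07, adjusted p = 0.00141). RPSA, the small subunit protein also known as the laminin receptor, fell from 1407 and 1354 CPM to 1119 and 1166 CPM (-0.27 ± 0.06, adjusted p = 2.30e-04). Without the deeper 786-O-Ctrl library these 3 had adjusted p-values of 0.0612, 0.0687 and 0.0606. RPL14 was at 664 and 680 CPM against 656 and 586 CPM (-0.12 ± 0.06, adjusted p = 0.0917), and passed without 786-O-VHL replicate 1 (1.58e-04), with limma-voom (0.0302) and with the GC and length correction (0.00653). RPL29 was at 775 and 772 CPM against 801 and 726 CPM (-0.03 ± 0.06, adjusted p = 0.732), with overlapping groups, and at -0.09 (0.0434) without 786-O-VHL replicate 1.

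By position, the 12 members on chromosome 19 stood out among the chromosomes after their values were seen. Of these, 9 rose and 0 fell, the median of the log2 fold changes being 0.29, and they include RPL13A, RPL28 and RPS16 of the largest rises. RPL18, RPL36, RPS19 and RPS28 also rose, while RPS15 and RPS9 did not pass the test. The 875 other tested genes of chromosome 19 had a median of 0.23, with 43.3% higher and 21.1% lower, the highest median of the 23 chromosomes with at least 100 such genes. Over the other chromosomes 14 members rose and 16 fell of 67, with a median of 0.00. These are 20.9% and 23.9%, against 32.6% and 31.9% of all genes. With the GC and length correction the chromosome 19 members had a median of 0.38, 10 higher and 0 lower, and the other genes of chromosome 19 a median of 0.25. Over all alternatives the chromosome 19 members counted 6 to 10 higher and 0 lower.

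**Figure D4:**
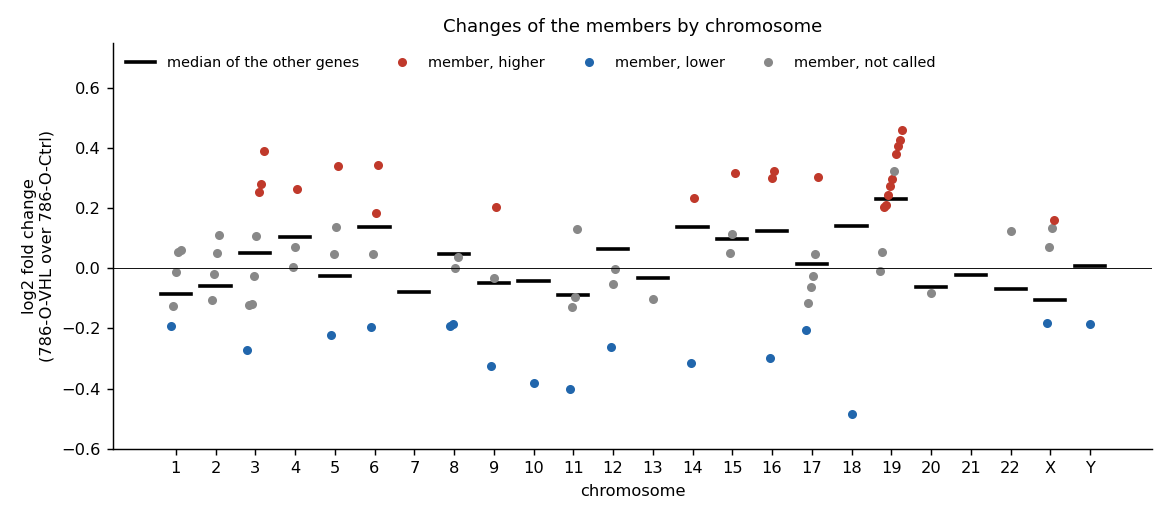
Log2 fold change (vertical axis) of each member placed by chromosome (horizontal axis), coloured by call; black bars are the median of the other tested genes of that chromosome. On chromosome 19, 9 of 12 members are higher and none lower, and the bar there, at 0.23, is the highest of the chromosomes with at least 100 other genes.

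Other features of the genes went with the change only weakly. Over the 78 identifiers with an annotation, Spearman's rho with the log2 fold change was 0.12 for GC content, 0.12 for exon length, -0.07 for the CPM in 786-O-Ctrl and -0.10 for the number of snoRNA genes inside the gene. These points share 4 libraries and are a description. The 28 members with 1 or more snoRNA genes inside them (56 snoRNA genes in all) counted 7 higher and 6 lower with a median of 0.02, and the 50 without counted 16 higher and 10 lower with a median of 0.05, beside 32.6% higher and 31.9% lower of all genes.

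Levels were compared between members per length, as CPM per kilobase of the union of annotated exons. The 72 main genes ran from 0.22 to 1185 CPM per kb in 786-O-Ctrl, with a median of 165 and quartiles of 107 and 353. RPL8, near the centre where peptide bonds form, led with 1202 and 1168 CPM per kb in 786-O-Ctrl, against 1016 and 1066 in 786-O-VHL. RPS12 followed with 1003 and 1014 against 1210 and 1093, RPS2 with 1000 and 953 against 740 and 844, and RPL35 with 606 and 620 against 504 and 476. RPS12 and RPS2, close to each other in 786-O-Ctrl, parted in 786-O-VHL, where RPS12 rose (0.18 ± 0.06, adjusted p = 0.0109) and RPS2 fell. RPL8 fell by 0.19 on the log2 scale (adjusted p = 0.00681). Leaving out the deeper or the shallower 786-O-Ctrl library ended the calls of RPS12 (adjusted p = 0.195 and 0.151) and of RPL8 (0.237 and 0.129), and library totals alone that of RPL8 (0.436). Across the 78 identifiers, rho between the levels of both groups was 0.981.

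The order at the top depends on the length used. Per kilobase of coding sequence of the canonical transcript, RPL41 led with 4485, before RPL8 with 3318, RPLP1 with 3054 and RPL37 with 2926, while RPS12 ranked 25th of 78. The upper quartile of the main genes was 3.30 times the lower one by exon union and 1.90 times by coding length. The lowest genes were the same by both lengths.

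The lowest levels lay far below the rest, and the annotation of these genes is given beside them. RPS9 was at 0.21 and 0.23 CPM per kb in 786-O-Ctrl, against 0.39 and 0.25 in 786-O-VHL, from 5 to 19 counts a library. RPL36A was at 0.81 and 0.64 against 0.86 and 0.79, RPS10 at 0.59 and 0.92 against 0.73 and 0.77, and RPL17 at 5.09 and 5.40 against 4.71 and 3.49. RPS9 was listed under a second identifier with 1 to 19 counts, which is not in the primary GRCh37 annotation used here. RPL36A, RPS10 and RPL17 share coding exons on their strand with the readthrough genes RPL36A-HNRNPH2, RPS10-NUDT3 and RPL17-C18orf32, none of which has an identifier in the table.

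In all, 7 members share such exons with another coding gene, and RPS15A, RPL26 and RPL22 are low as well, while RPL36 is not. The 8 main genes with shared exons or under 100 counts in every library had a median of 6.58 CPM per kb and the other 64 a median of 211. RPS9 was in the group only for its low counts, so this gap was partly set by the choice of genes. How reads in shared exons were counted is not given in the sources used here, and its part in these levels was not tested. Their changes were measured less precisely: RPS9 had 0.32 ± 0.47 (adjusted p = 0.568) and 0.25 ± 0.61 (0.740), RPS10 0.05 ± 0.39 (0.924) and RPL36A 0.13 ± 0.30 (0.715). Without the members with shared exons or under 100 counts in every library, 21 rose and 15 fell of 70. That is 30% and 21.4%, against 32.6% and 31.9% of all genes. Annotated pseudogenes named after a member ranged up to 133, for RPL21, and their number had a rho of -0.01 with the level per kilobase.

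All 6 paralogs passed the test, 2 higher and 4 lower, where 45.2% of the main gene identifiers and 64.5% of all genes did. RPL22L1 can stand in for RPL22 in the ribosome, and RPL22 is known to repress it. RPL22L1 was at 29.9 and 30.8 CPM in 786-O-Ctrl, against 42.4 and 38.8 CPM in 786-O-VHL (0.39 ± 0.10, adjusted p = 0.00106), while RPL22 was at 56.0 and 58.3 CPM against 58.3 and 56.1 CPM (-0.01 ± 0.08, adjusted p = 0.911). RPL22L1 thus took 34.8% and 34.5% of the pair's counts in 786-O-Ctrl (95% Wilson intervals 32.7% to 37.03% and 32.0% to 37.1%), against 42.1% and 40.9% in 786-O-VHL (36.6% to 47.8% and 38.5% to 43.3%). The interval of 786-O-VHL replicate 1 overlapped those of both 786-O-Ctrl libraries, and that of replicate 2 did not. RPL22 shares exons with another coding gene, as given above.

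RPS27L, a known p53 target, and RPS27 also differed in their change. RPS27L rose from 82.8 and 84.1 CPM to 95.6 and 107 CPM (0.32 ± 0.07, adjusted p = 2.75e-04; 0.108 without 786-O-VHL replicate 2). RPS27 was at 446 and 456 CPM against 485 and 455 CPM (0.05 ± 0.06, adjusted p = 0.466), and passed only with library totals alone (0.00877). The share of RPS27L in the pair was 15.7% and 15.6% in 786-O-Ctrl, against 16.5% and 19.1% in 786-O-VHL, so replicate 1, with an interval of 14.8% to 18.3%, could not be told from 786-O-Ctrl.

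RPS4Y1 and RPS4X, the Y and X copies of one small subunit protein, moved apart. RPS4Y1 fell from 302 and 305 CPM to 272 and 263 CPM (-0.19 ± 0.06, adjusted p = 0.0102), and RPS4X rose from 1195 and 1171 CPM to 1399 and 1256 CPM (0.16 ± 0.06, adjusted p = 0.0234). RPS4Y1 took 20.1% and 20.7% of the pair's counts in 786-O-Ctrl, against 16.3% and 17.3% in 786-O-VHL. The share does not depend on the scaling of the libraries, but both calls were lost without the deeper 786-O-Ctrl library (0.125 and 0.212) and without the shallower (0.156 and 0.310), that of RPS4Y1 with library totals alone (0.463) and thinning (0.0978), and that of RPS4X with DESeq2 (0.0896) and without 786-O-VHL replicate 1 (0.0521).

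The other 3 paralogs fell. RPL36AL, whose main gene RPL36A had only 10 to 68 counts a library, went from 92.8 and 92.3 CPM to 77.7 and 73.3 CPM (-0.31 ± 0.07, adjusted p = 3.17e-04) and held 95.8% to 97.3% of the pair's counts. RPL26L1 went from 50.04 and 49.2 CPM to 39.0 and 43.7 CPM (-0.22 ± 0.09, adjusted p = 0.0262), beside RPL26 at 36.8 and 37.3 CPM against 37.7 and 38.5 CPM (0.05 ± 0.09, adjusted p = 0.668). RPL26 shares exons with another coding gene and is low for a main gene, as given above, so the levels of this pair are uncertain. RPL7L1, which acts in ribosome assembly, went from 224 and 222 CPM to 187 and 199 CPM (-0.20 ± 0.06, adjusted p = 0.00864), as did RPL7, from 1359 and 1356 CPM to 1239 and 1142 CPM (-0.19 ± 0.06, adjusted p = 0.00644).

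RPL7L1 held 14.2% and 14.1% of its pair in 786-O-Ctrl, against 13.1% and 14.9% in 786-O-VHL, with overlapping groups. The calls of RPL26L1, RPL7L1 and RPL7 were lost with library totals alone (0.376, 0.392 and 0.395), without the deeper 786-O-Ctrl library (0.157, 0.121 and 0.154) and without the shallower (0.0969, 0.0856 and 0.140), those of RPL26L1 and RPL7L1 with thinning (0.327 and 0.378), and that of RPL26L1 with DESeq2 (0.130) and the GC and length correction (0.158).

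**Figure D5:**
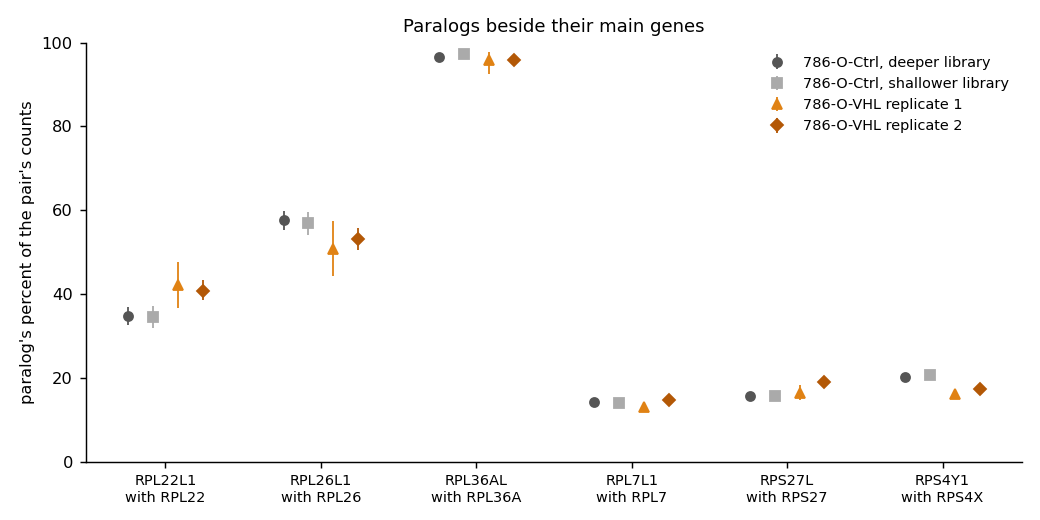
Percent of the counts of each pair that fell on the paralog (vertical axis) in the 4 libraries; bars are 95% Wilson intervals, which cover counting error only. The main genes RPL22, RPL26 and RPL36A share exons with other coding genes. RPL22L1 takes more of its pair with VHL (42.1% and 40.9%) than without (34.8% and 34.5%), though the interval of replicate 1 overlaps those of 786-O-Ctrl. RPS4Y1 takes less (16.3% and 17.3% against 20.1% and 20.7%).

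Ribosomal proteins with other names include FAU and RACK1. FAU, which encodes RPS30, had a log2 fold change of 0.14 ± 0.06 (adjusted p = 0.0499) and RACK1, a small subunit scaffold, of -0.01 ± 0.06 (0.945). The 76 genes of mitochondrial ribosomal proteins, which serve translation inside mitochondria, counted 13 higher and 34 lower with a median of -0.18. That is 17.1% higher and 44.7% lower, against 32.6% and 31.9% of all genes, and 10 of them (13.2%) passed with a change over 1.5-fold, against 34.8% of all genes. MRPL23 (-1.60 ± 0.14), MRPS28 (-0.89 ± 0.15) and MRPS6 (-0.83 ± 0.10) had the largest falls, and MRPS10 (0.67 ± 0.07), MRPS18A (0.64 ± 0.11) and MRPS31 (0.54 ± 0.16) the largest rises. With library totals alone, they counted 21 higher and 22 lower with a median of -0.05. Of all 12335 genes tested, 5077 were then higher and 3097 lower. The mitochondrial median was -0.188 without 786-O-VHL replicate 2, -0.164 without the deeper 786-O-Ctrl library and -0.185 without the shallower.

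Of the other TOP mRNAs, some encode translation factors and some encode other proteins. This list counted 3 higher and 10 lower of 18 measured (16.7% and 55.6%, against 32.6% and 31.9% of all genes), with a median of -0.29. HNRNPA1, a splicing regulator, was at 879 and 887 CPM in 786-O-Ctrl, against 401 and 365 CPM in 786-O-VHL (-1.22 ± 0.06, adjusted p = 9.63e-16). VIM, the intermediate filament vimentin, had -1.21 ± 0.06 and IPO5, an importin, -0.91 ± 0.07. EIF4A2, an initiation helicase, had 0.66 ± 0.06, CCNI 0.49 ± 0.06 and TPT1 0.24 ± 0.06. Of these 18 genes 5 passed with a change over 1.5-fold (27.8%), a smaller share than the 34.8% of all genes. Leaving out 786-O-VHL replicate 2 moved the median of the 18 to -0.19.

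Of 16 chaperones of ribosomal proteins and binders of TOP mRNAs, 4 rose and 6 fell, with a median of -0.13; the 62.5% called is close to the 64.5% of all genes. GRWD1, a chaperone of RPL3, had -0.78 ± 0.08, AAMP -0.66 ± 0.07 and BCCIP, a chaperone of RPL23, -0.57 ± 0.08. TIA1, an RNA binding protein of stress granules, had 0.49 ± 0.08, LARP1B 0.47 ± 0.09 and CNBP 0.37 ± 0.06. LARP1, the TOP mRNA binder under mTORC1, was named in addition after its values were seen, at 428 and 419 CPM in 786-O-Ctrl, against 316 and 339 CPM in 786-O-VHL (-0.36 ± 0.06, adjusted p = 1.08e-05).

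Of the 8 measured RPS6K kinases, whose family includes the S6 kinases, 3 rose and 2 fell, with a median of 0.18; here too 62.5% were called, against 64.5% of all genes. RPS6KA2, a kinase of the RSK branch, was at 9.35 and 10.8 CPM in 786-O-Ctrl, against 98.4 and 107 CPM in 786-O-VHL (3.38 ± 0.10, adjusted p = 2.46e-21). RPS6KB1, which encodes S6K1, had 0.47 ± 0.09 and RPS6KA5 0.30 ± 0.13 (adjusted p = 0.0486), while RPS6KA4 had -0.99 ± 0.08 and RPS6KA3 -0.29 ± 0.07. The change of RPS6KA2 lay outside the range of the members, which ran from -0.48 to 0.46. A list of 12 further snoRNA host genes was not analysed here.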

How the data were processed

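The authors extracted RNA from both sublines in duplicate and sequenced TruSeq libraries on an Illumina NovaSeq. The deposited file holds raw gene counts (not normalized) on hg19; the submitters' processing notes name CASAVA and STAR. No source used here gives the counting tool, its annotation or its use of strand. Both 786-O-Ctrl columns carried the same name, so they were told apart by depth only. Identifiers were matched to GENCODE v44lift37 (GRCh37): 12749 of 12912 had an entry, and 78 of the 79 members.

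Counts were tested with edgeR 4.0.16 (R 4.3.3) on the whole table: filterByExpr with a minimum count of 10, TMM scaling, a quasi-likelihood F test of group and Benjamini-Hochberg adjustment over 12335 genes, with calls at an adjusted p under 0.05. SE is the size of the log2 fold change over the root of F. The biological coefficient of variation was 4.31%. DESeq2 1.42.0 and limma 3.58.1 were alternatives. The fits were tested on simulated data. Replicates differed by more than sampling noise (chi-square per degree of freedom 2.26 and 2.82), so each counted once.

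The members and lists were chosen with earlier results of these data known. Members named in the text were the 6 largest rises and falls among those called, the 4 highest and 4 lowest main genes per kilobase, the paralogs with their main genes, RPLP0, RPLP1, RPLP2, RPL5, RPL11, RPS6, the 3p members, RPS19 and RPL35A, with at most 3 genes per direction of other lists; a few genes that the rule takes are not reported here. Pseudogenes were counted by GENCODE name.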

Additional observations from a re-analysis of the deposited data

How the results depend on the processing

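No paired analysis was possible because both 786-O-Ctrl columns carry the same replicate number. Of the log2 fold changes of single members named, none changed sign while called; 312 kept their side of the threshold, 16 lost it and 9 gained it over the alternatives that keep all libraries, and 118, 28 and 6 on leaving out 1 library. With library totals alone, 38 members were higher and 6 lower, beside 5077 and 3097 of all 12335 genes tested. The median of the members was then 0.18, that of the mitochondrial ribosomal proteins -0.045 and that of the other TOP mRNAs -0.16. Thinning every library to 2807779 counts left 10 members lower (24 higher), and the mitochondrial median at -0.13. Of the 10816 genes then tested, 2823 were higher and 2855 lower. The GC and length correction moved the median of the members to 0.091 (28 higher and 15 lower). With it, 3940 of 12200 genes were higher and 4024 lower. A fold over 1.5 left 0 higher and 0 lower, also in DESeq2 and limma-voom, and 1 higher with library totals alone. Leaving out 1 library gave 14 to 31 higher, 5 to 27 lower, medians of 0.01 to 0.09 for the members, -0.19 to -0.16 for the mitochondrial ribosomal proteins and -0.35 to -0.19 for the other TOP mRNAs; the group left with 1 library was assumed to vary like the other, and the 14 and 5 came without the deeper 786-O-Ctrl library, the 27 without 786-O-VHL replicate 1 and the 31 without replicate 2. The cause was not tested. Chosen after seeing the data, leaving out chromosome 19 gave 14 higher and 16 lower with a median of 0.0014. Counted outside mitochondrial genes, the share of counts on the members was 5.12% in place of 4.99% in 786-O-Ctrl and 5.74% in place of 5.63% in 786-O-VHL. The depth of 786-O-VHL replicate 1, 5.6 to 7.89 times below the others, limits the members with few counts most.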
